A study of Mus musculus with 42 samples.

Results

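The 9 genes described here are markers of smooth muscle cells and pericytes in mouse lung: Acta2, Actg2, Myh11, Myl9, Cnn1, Tagln, Des, Pdgfrb and Cspg4. They were chosen by name from the 54532 genes of the deposited expression table. Each of the 9 was among the 16962 genes tested, those with a mean of at least 0.5 FPKM over all libraries (FPKM, the fragments counted on a gene for its length, put on a common scale between libraries). Lungs came from WT C57BL/6J mice of 2 conditions. SD mice, for which the title of the series gives sleep deficiency, were kept in SD cages for 20 h a day on 2 days, and Ctrl mice spent the same hours in home cages. All mice lived under a 24 h light-dark cycle with lights on at ZT0 and off at ZT12. Lungs were collected every 4 h over ZT0 to ZT24, which gives 14 groups of 3 libraries. Each group is labelled as having 3 biological replicates, with no word on whether a library is 1 animal or a pool. No age is given.

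Smooth muscle cells wrap the airways and the larger vessels of the lung and shorten by the pull of smooth muscle myosin on actin filaments. Their contractile genes are read out together by serum response factor with its co-factors of the myocardin family, which bind DNA at CArG boxes. Pericytes lie along capillaries and are held there by platelet-derived growth factor (PDGF) signalling from endothelium to the receptor Pdgfrb. Alveolar and adventitial fibroblasts and myofibroblasts share part of these genes. Desmin is also made by heart and skeletal muscle, so these genes mark a group of contractile and perivascular cells and not 1 cell type.

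Depth was 25285525 to 29790252 recovered reads per library, of which the 9 genes together held 0.0473% to 0.0919%. The count per library ran from 42 to 137 reads for Tagln, from 259 to 765 for Actg2, from 414 to 1059 for Cspg4, and from 479 upwards for the other 6. Lung markers were high, such as Scgb1a1, the secretoglobin of airway club cells, which took 1.08% to 4.35% of reads in each library, and Cldn5, the tight junction claudin of endothelium, at 511 FPKM on average. Since separate animals are not stated, p-values measure only the spread between these libraries, which may be technical. In whole lung, fewer cells of a type and less RNA per cell cannot be told apart.

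Promoter sequence is shown for the 2 members with the highest levels, Acta2 and Myl9, and for Cnn1, the member that varied most, because all are known serum response factor targets. The 250 bases before the start site were taken from RefSeq (build GRCm38.p6), written 5′ to 3′ on the gene's strand, with CArG boxes in capitals, counting matches with at most 1 other letter. The RefSeq start sites lie near, but not at, the gene starts of the deposited table. Acta2 is at chr19:34255374-34255623 (minus strand), Myl9 at chr2:156775214-156775463 (plus strand) and Cnn1 at chr9:22099003-22099252 (plus strand).
Acta2: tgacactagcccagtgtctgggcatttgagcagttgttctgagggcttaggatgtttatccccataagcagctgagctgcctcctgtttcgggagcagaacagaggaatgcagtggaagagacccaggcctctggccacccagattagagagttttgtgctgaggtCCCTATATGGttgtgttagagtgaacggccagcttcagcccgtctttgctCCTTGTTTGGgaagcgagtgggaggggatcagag
Myl9: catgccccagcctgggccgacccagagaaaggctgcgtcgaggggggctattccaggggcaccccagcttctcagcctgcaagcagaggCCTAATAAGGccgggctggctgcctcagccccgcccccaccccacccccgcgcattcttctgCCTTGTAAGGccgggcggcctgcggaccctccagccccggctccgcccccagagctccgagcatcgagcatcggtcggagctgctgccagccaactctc
Cnn1: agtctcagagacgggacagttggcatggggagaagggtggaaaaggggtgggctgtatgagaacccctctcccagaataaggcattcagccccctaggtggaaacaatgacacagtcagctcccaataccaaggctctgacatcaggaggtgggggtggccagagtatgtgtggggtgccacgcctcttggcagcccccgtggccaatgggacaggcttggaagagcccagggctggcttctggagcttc
The Acta2 window held 2 near matches, CCCTATATGG from -84 to -75 and CCTTGTTTGG from -34 to -25, where -1 is the last base before the start. Myl9 held the exact box CCTAATAAGG from -161 to -152 and the near match CCTTGTAAGG from -99 to -90. No letters of either kind were found in the Cnn1 window. Both strands were searched. Windows of 5 of the 9 genes were searched, and Des held no match while Cspg4 held a pair of overlapping near matches. The other members were not searched. Among 32817 promoter windows of the same length, 1.47% held an exact box and 18.6% a box with at most 1 other letter.

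Acta2, Myh11, Cnn1, Actg2 and Des had the highest of their 14 group means in SD lungs at ZT8. The lowest was that of Ctrl lungs at ZT16, or for Acta2 that of SD lungs at ZT20. Cnn1, calponin, stood at 30.5 FPKM in SD and 17.7 FPKM in Ctrl lungs at ZT8, and at 14.5 FPKM in SD and 6.54 FPKM in Ctrl lungs at ZT16. Pdgfrb, the pericyte receptor, stayed between 28.9 and 35.2 FPKM in SD lungs at all 7 times and ranged between 18.4 and 34.5 FPKM in Ctrl lungs. Acta2, Actg2, Cnn1, Myl9, Pdgfrb and Cspg4 were called lower in SD at both ZT20 and ZT24. Of the 63 differences of SD from Ctrl (9 genes, 7 times), 46 were called, 21 higher and 25 lower in SD. Of all tested genes, 37.7% (ZT0) to 61.4% (ZT20) were called at a single time. Calls come from limma on log2(FPKM + 1) and need an adjusted p under 0.05, with Benjamini-Hochberg adjustment over the whole set of tested genes. Differences below are on that log2 scale with their standard error (SE), and levels are means ± standard deviation with n = 3.

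**Figure D1:**
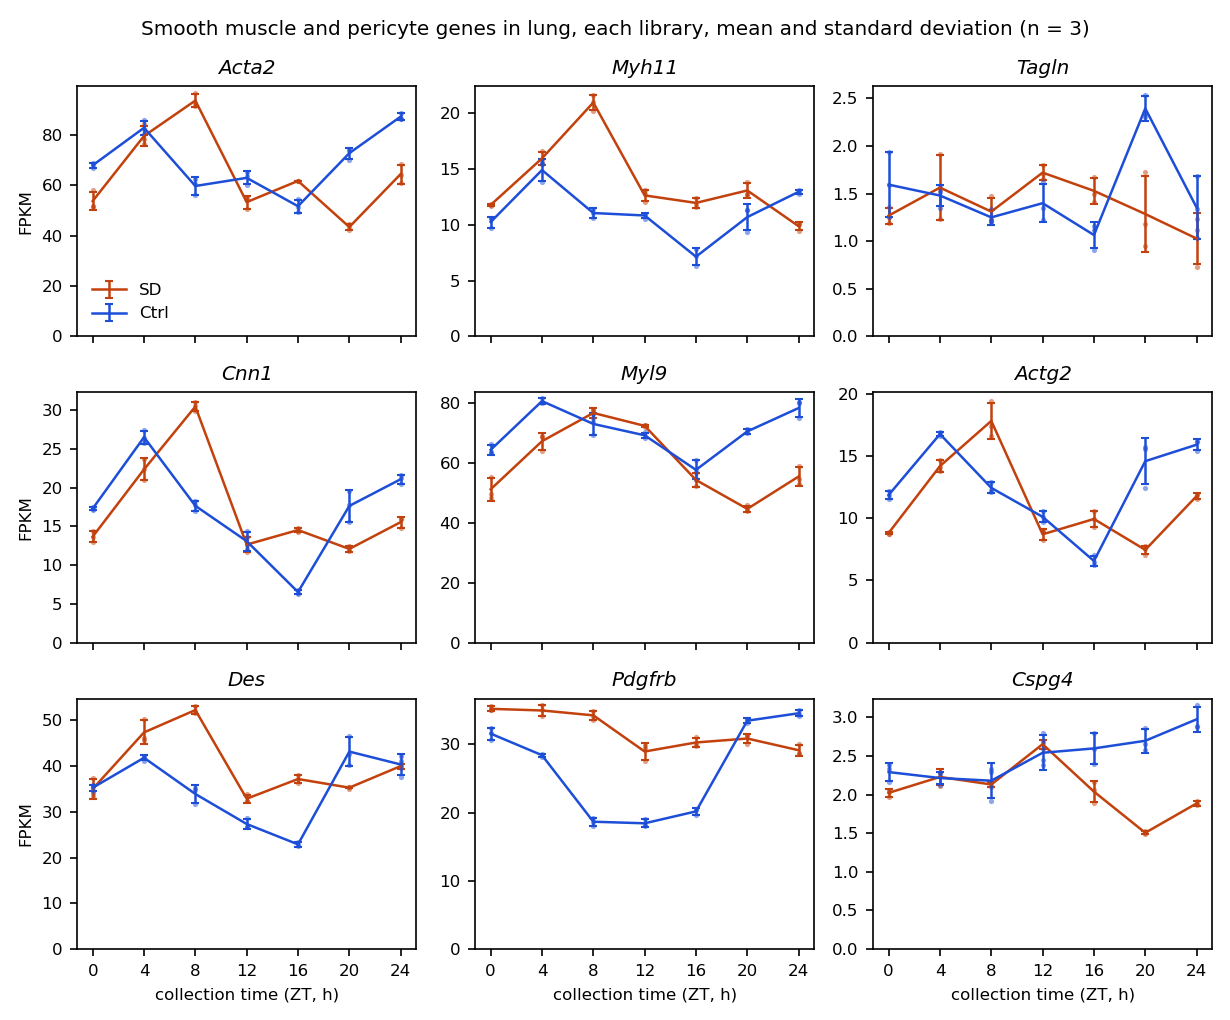
FPKM of the 9 genes by collection time (h after lights on) in SD (orange) and Ctrl (blue) lungs. Points are libraries, lines join group means and bars are standard deviations (n = 3). Acta2, Myh11, Cnn1, Actg2 and Des have their highest group in SD at ZT8, and Pdgfrb lies between 28.9 and 35.2 FPKM in each SD group.

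By time, the calls changed sides. At ZT0 6 of 9 genes were called, 2 higher and 4 lower in SD, where 37.7% of all tested genes were called, 18% higher and 19.7% lower. At ZT4 5 were called, 2 higher and 3 lower (39.2% of all genes, 19.2% higher and 20.1% lower). At ZT8 6 were called and all 6 were higher in SD, with 27.1% of all genes called higher at that time, 28.9% lower and 56% in all. The 3 not called at ZT8 were Tagln, Myl9 and Cspg4.

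At ZT12 5 genes were called, 3 higher (Myh11, Des, Pdgfrb) and 2 lower (Acta2, Actg2), against 48.9% of all genes, 24.4% in each direction. At ZT16 8 were called, 7 higher and 1 lower, Cspg4, with 29.1% of all genes called higher, 27.1% lower and 56.1% in all. The sides then turned. At ZT20 all 9 were called, 8 lower and 1 higher, Myh11, with 28.4% of all genes called lower, 33% higher and 61.4% in all. At ZT24 7 were called, all lower, with 22.3% of all genes called lower, 24.4% higher and 46.8% in all. The median over the 9 genes was log2 0.61 at ZT8, 0.53 at ZT16, -0.56 at ZT20 and -0.40 at ZT24, while the median of all tested genes stayed between -0.01 and 0.02 at these times. The F test of whether the SD effect differs between times was called for 9 of 9 genes, and for 81.7% of all tested genes. Its adjusted p ran from 1.06e-20 for Pdgfrb to 0.000156 for Tagln.

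**Figure D2:**
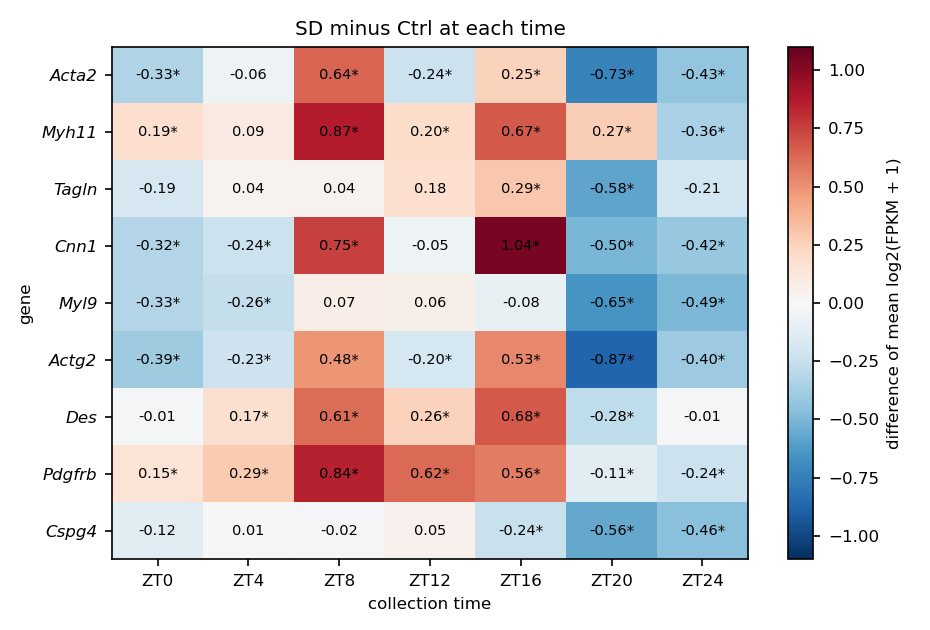
SD minus Ctrl of mean log2(FPKM + 1) for each of the 9 genes at each collection time. Red is higher and blue lower in SD, and a star marks a limma call at an adjusted p under 0.05. The ZT8 and ZT16 columns are mostly red, with 1.04 for Cnn1 at ZT16, and the ZT20 column is blue for every gene but Myh11.

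Acta2 (ENSMUSG00000035783, chromosome 19, 34241090 to 34255336, minus strand, in mm10 as are the other positions) encodes the alpha actin of smooth muscle and of myofibroblasts. At ZT8 its 3 libraries read 92.5, 91.5 and 96.6 FPKM in SD lungs, against 62.6, 55.9 and 60.5 FPKM in Ctrl lungs. The groups lay far apart and the difference was log2 0.64 ± 0.0480 SE (adjusted p = 3.67e-13, limma). At ZT20 the order was turned round, with 43.5, 42.2 and 44.4 FPKM in SD and 73.7, 70.1 and 74.2 FPKM in Ctrl libraries. Here each SD library was below each Ctrl library and Acta2 fell (log2 -0.73 ± 0.0480 SE). At ZT24 Acta2 was also lower in SD, at 64.4 ± 3.77 FPKM against 87.2 ± 1.35 FPKM in Ctrl (log2 -0.43). At ZT4 the groups overlapped (79.5 ± 4.13 FPKM in SD and 82.8 ± 2.75 FPKM in Ctrl lungs, log2 -0.06, not called).

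Actg2 (ENSMUSG00000059430, chromosome 6, 83512905 to 83536265, minus strand), the gamma actin of visceral smooth muscle, moved like Acta2 at a lower level. At ZT8 it read 16.6, 17.4 and 19.5 FPKM in SD and 12.1, 12.9 and 12.3 FPKM in Ctrl libraries (log2 0.48 ± 0.0596 SE). At ZT20 it read 7.09, 7.74 and 7.56 FPKM in SD and 15.6, 12.4 and 15.8 FPKM in Ctrl libraries. That was the largest fall of the 9 genes at any time, log2 -0.87 ± 0.0596 SE (adjusted p = 3.18e-14, limma). Actg2 was called at all 7 times, 2 higher and 5 lower, but without SD ZT12 replicate 3 the ZT12 call was lost (adjusted p = 0.0515, limma). Actg2 per Acta2, both in FPKM, ran from 0.161 to 0.190 in the SD groups and from 0.127 to 0.209 in the Ctrl groups. The 2 actins shared none or few 50-base stretches with other genes (0% of Actg2 and 0.326% of Acta2), so few reads can be confused with those of other actins.

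Myh11 (ENSMUSG00000018830, chromosome 16, 14194535 to 14291372, minus strand) encodes the smooth muscle myosin heavy chain, the motor of contraction and the most specific marker of the mature cell. At ZT8 its libraries read 21.01, 20.2 and 21.7 FPKM in SD and 11.5, 10.6 and 11.1 FPKM in Ctrl lungs. All SD values were well above all Ctrl values (log2 0.87 ± 0.0577 SE, 1.82-fold in FPKM + 1). Myh11 stood apart from the other contractile genes at ZT20, with 12.7, 12.8 and 13.8 FPKM in SD and 11.3, 9.39 and 11.4 FPKM in Ctrl libraries. It was the riser among 8 fallers there (log2 0.27 ± 0.0577 SE), but scaled by total reads it stood at 0.08 with no call (adjusted p = 0.251). That scaling moved the median of all genes at ZT20 by -0.16. At ZT24 Myh11 was lower in SD, at 9.88 ± 0.375 FPKM against 13.0 ± 0.200 FPKM in Ctrl (log2 -0.36). At ZT0 it was higher in SD (log2 0.19). Without Ctrl ZT0 replicate 3 that call was lost, at log2 0.15 and an adjusted p of 0.0749.

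Myl9 (ENSMUSG00000067818, chromosome 2, 156775420 to 156781658, plus strand) encodes the regulatory light chain whose phosphorylation starts contraction, and is also made by non-muscle cells. It varied least of the 9 genes, by 1.81-fold between its highest group (Ctrl ZT4, 80.5 FPKM) and its lowest (SD ZT20, 44.6 FPKM). At ZT8, ZT12 and ZT16 Myl9 was not called, with log2 differences of 0.07, 0.06 and -0.08. Without Ctrl ZT16 replicate 2 the ZT16 value was -0.12 and was called (adjusted p = 0.0296, limma), as it was scaled by total reads (-0.14, adjusted p = 0.00241). At ZT20 it read 44.2, 45.8 and 43.9 FPKM in SD and 71.3, 69.7 and 70.3 FPKM in Ctrl libraries. The fall at ZT20 was log2 -0.65 ± 0.0443 SE, and Myl9 was also lower in SD at ZT0, ZT4 and ZT24. It was higher in SD at none of the called times.

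Cnn1 (ENSMUSG00000001349, chromosome 9, 22099216 to 22109630, plus strand) encodes calponin, an actin-binding protein of differentiated smooth muscle that slows the myosin motor. It varied most of the 9 genes, by 4.66-fold in mean FPKM from Ctrl ZT16 to SD ZT8. At ZT16 its libraries read 14.8, 14.3 and 14.4 FPKM in SD and 6.44, 6.85 and 6.33 FPKM in Ctrl lungs. SD was 2.06-fold higher there in FPKM + 1, the largest rise of the 9 genes at any time (log2 1.04 ± 0.0603 SE, adjusted p = 4.30e-16, limma). At ZT8 it read 30.5, 31.1 and 29.9 FPKM in SD and 17.7, 16.9 and 18.3 FPKM in Ctrl libraries (log2 0.75). At ZT0, ZT4, ZT20 and ZT24 Cnn1 was lower in SD, with log2 -0.32, -0.24, -0.50 and -0.42. Averaged over the 7 times these rises and falls left log2 0.04 ± 0.0228 SE with no call. It was called higher by limma without Ctrl ZT12 replicate 1 (log2 0.05, adjusted p = 0.0433), without Ctrl ZT20 replicate 1 (log2 0.05, adjusted p = 0.0340) and without ZT24 (log2 0.12).

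Tagln (ENSMUSG00000032085, chromosome 9, 45929619 to 45936058, minus strand) encodes transgelin (SM22), an actin-binding protein that is usually abundant in smooth muscle. Here it was at only 1.45 FPKM on average. Of its 1988 exonic bases 67.9% overlap exons of genes on the other strand in GENCODE M21, 62.4% those of Gm48529 (1.61 FPKM) and 5.43% those of Pcsk7 (10.6 FPKM). How the counting treated strand and reads that fall on several genes is not given in the sources used here, so the Tagln level is uncertain and its values are given for completeness. At ZT20 Tagln read 1.18, 1.73 and 0.953 FPKM in SD and 2.54, 2.34 and 2.30 FPKM in Ctrl libraries. All SD values were below all Ctrl values there (log2 -0.58 ± 0.110 SE). At ZT16 it was higher in SD (log2 0.29, adjusted p = 0.0241, limma), and without Ctrl ZT16 replicate 2 or SD ZT16 replicate 1 that call was lost (adjusted p = 0.106 and 0.0920). With voom on the recovered reads the ZT16 value was 0.52 and the ZT20 value -0.95. No call was made at the other 5 times, though without Ctrl ZT24 replicate 1 Tagln was called lower at ZT24 (log2 -0.32, adjusted p = 0.0319), as it was scaled by total reads (-0.27, adjusted p = 0.0488).

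Des (ENSMUSG00000026208, chromosome 1, 75360329 to 75368579, plus strand) encodes desmin, the intermediate filament of muscle cells and of many pericytes. At ZT8 its libraries read 53.2, 52.1 and 51.5 FPKM in SD and 34.8, 31.6 and 35.3 FPKM in Ctrl lungs. At ZT16 they read 38.1, 37.1 and 36.4 FPKM in SD and 22.5, 23.5 and 22.7 FPKM in Ctrl lungs. The groups were clear of each other at both times (log2 0.61 and 0.68), and Des was also higher in SD at ZT4 and ZT12. At ZT20 Des fell to 35.3 ± 0.176 FPKM in SD, against 43.2 ± 3.25 FPKM in Ctrl (log2 -0.28 ± 0.0468 SE, and -0.49 scaled by total reads). At ZT0 and ZT24 the groups overlapped and Des was not called (log2 -0.01 at both). On the other strand Gm15179 overlaps 5.86% of Des exons, at a mean of 0.0121 FPKM.

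The 2 pericyte genes did not move together. Pdgfrb (ENSMUSG00000024620, chromosome 18, 61045150 to 61085061, plus strand) encodes the beta receptor for PDGF, which pericytes need for recruitment. At ZT8 it read 33.6, 34.2 and 34.9 FPKM in SD and 19.3, 18.1 and 18.6 FPKM in Ctrl libraries. Pdgfrb was 1.79-fold higher in SD at that time in FPKM + 1 (log2 0.84 ± 0.0296 SE, adjusted p = 1.07e-21, limma). It was also higher at ZT0, ZT4, ZT12 and ZT16. The sides turned at the end of the dark phase. At ZT24 it read 30.1, 28.6 and 28.7 FPKM in SD and 34.2, 35.0 and 34.4 FPKM in Ctrl libraries (log2 -0.24), and at ZT20 it was slightly lower in SD (log2 -0.11, and -0.32 scaled by total reads). The difference between times lay mostly in the Ctrl groups, which were at 18.7, 18.4 and 20.2 FPKM at ZT8, ZT12 and ZT16 and between 28.4 and 34.5 FPKM at the other times.

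Cspg4 (ENSMUSG00000032911, chromosome 9, 56865033 to 56899870, plus strand) encodes the NG2 proteoglycan of the pericyte surface. It was at 2.28 FPKM on average, far below Pdgfrb per length. At ZT20 it read 1.50, 1.53 and 1.49 FPKM in SD and 2.65, 2.58 and 2.87 FPKM in Ctrl libraries. Every SD value was below every Ctrl value (log2 -0.56 ± 0.0498 SE, adjusted p = 1.95e-11, limma), as also at ZT16 (log2 -0.24) and ZT24 (log2 -0.46). At ZT4, ZT8 and ZT12 Cspg4 lay within 0.05 log2 units of Ctrl without a call. At ZT0 it was not called at log2 -0.12, and it was called lower without Ctrl ZT0 replicate 3 (log2 -0.15, adjusted p = 0.0340, limma), with a pseudocount of 0.1 (-0.17, adjusted p = 0.0468), scaled by total reads (-0.15, adjusted p = 0.0146) and with voom (-0.18, adjusted p = 0.0381).

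Averaged over the 7 times, 7 of the 9 genes were called, where 69.9% of all tested genes were called, 34.6% higher and 35.3% lower. The 3 higher in SD were Pdgfrb (log2 0.30 ± 0.0112 SE), Myh11 (log2 0.28 ± 0.0218 SE) and Des (log2 0.20 ± 0.0177 SE). The 4 lower were Myl9 (log2 -0.24 ± 0.0167 SE), Cspg4 (log2 -0.19 ± 0.0188 SE), Actg2 (log2 -0.15 ± 0.0225 SE) and Acta2 (log2 -0.13 ± 0.0182 SE). With the 14 group means as units, which sets the average against its spread over the day, none of the 9 was called by limma, 2 had an unadjusted p under 0.05, and 16.9% of all genes were called. Without ZT8, ZT12, ZT16 and ZT24 the average of Des was -0.04 with no call, Cnn1 was called lower at -0.35, and Acta2 and Actg2 stood at -0.37 and -0.50. Under that setting Pdgfrb averaged 0.11, Myh11 0.18 and Myl9 -0.41. The averages of these 7 genes thus moved by over 1.5 times with the times included. That setting left out ZT8 and ZT16, where the median over the 9 genes was highest, so lower averages were built into the choice. Tagln, at -0.06 with no call over all times, was called lower by limma under that setting (-0.24, adjusted p = 0.00769). It was also called lower by limma scaled by total reads (-0.10, adjusted p = 0.0274).

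The comparison of daily rhythms asks when in the day these genes peak. A 24 h cosine was fitted to the 21 libraries of each condition. In Ctrl lungs 8 of 9 genes had a called rhythm, where 57.6% of all tested genes had one, and the one without was Tagln. In SD lungs 7 had one, against 9.2% of all genes, and the 2 without were Pdgfrb and Tagln. With group means as units, limma called no gene of the 9 in SD (4 at an unadjusted p under 0.05) and Pdgfrb alone in Ctrl (adjusted p = 0.0354, 5 at an unadjusted p under 0.05), where 0.0118% and 2.27% of all genes were called.

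The fitted peaks of the 6 contractile genes other than Tagln, Des included, were later in SD lungs. Acta2 peaked 6.73 ± 0.548 h after ZT0 in SD and 1.66 ± 0.738 h after ZT0 in Ctrl lungs, a shift of 5.07 ± 0.919 h (SE). Cnn1 peaked at 6.57 ± 0.529 h in SD and 3.40 ± 0.482 h in Ctrl, the smallest shift of the 6, at 3.17 h. The shifts of Myh11, Myl9, Actg2 and Des lay between, at 3.82, 3.94, 3.68 and 4.31 h. These times are those of a cosine, and the sampling step of 4 h is longer than 4 of the 6 shifts. In Ctrl lungs all 6 were called higher at ZT24 than at ZT0, the same clock hour. The differences ran from log2 0.19 (Des) to 0.39 (Actg2). A 24 h cosine cannot follow them, so the Ctrl peak times and the shifts are uncertain.

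Amplitudes changed less evenly. The log2 amplitude of Myl9 was 0.37 in SD and 0.17 in Ctrl lungs, and that of Acta2 0.43 in SD and 0.27 in Ctrl. The amplitude of Cnn1 was 0.54 in SD and 0.70 in Ctrl, and Myh11 had 0.34 and 0.33. Pdgfrb was near flat in SD, with an amplitude of 0.11, against 0.48 in Ctrl lungs, where it peaked at 23.2 ± 0.258 h (SE). The fitted peak of Cspg4 was at 9.06 h in SD and 19.0 h in Ctrl lungs, at small amplitudes (0.17 in SD and 0.11 in Ctrl). In Ctrl lungs Cspg4 was highest at ZT24 (2.98 FPKM) and stood at 2.29 FPKM at ZT0, the same clock hour. A 24 h cosine cannot follow such a difference, so the Ctrl peak time of Cspg4 is uncertain, as are those of the contractile genes above. The test of a different rhythm, added after the values were seen, was called for 9 of 9 genes and for 30.3% of all tested genes. Its smallest adjusted p was 1.12e-09, for Pdgfrb, and with group means as units limma called 0 of 9 and 0% of all genes, with 4 of the 9 at an unadjusted p under 0.05.

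**Figure D3:**
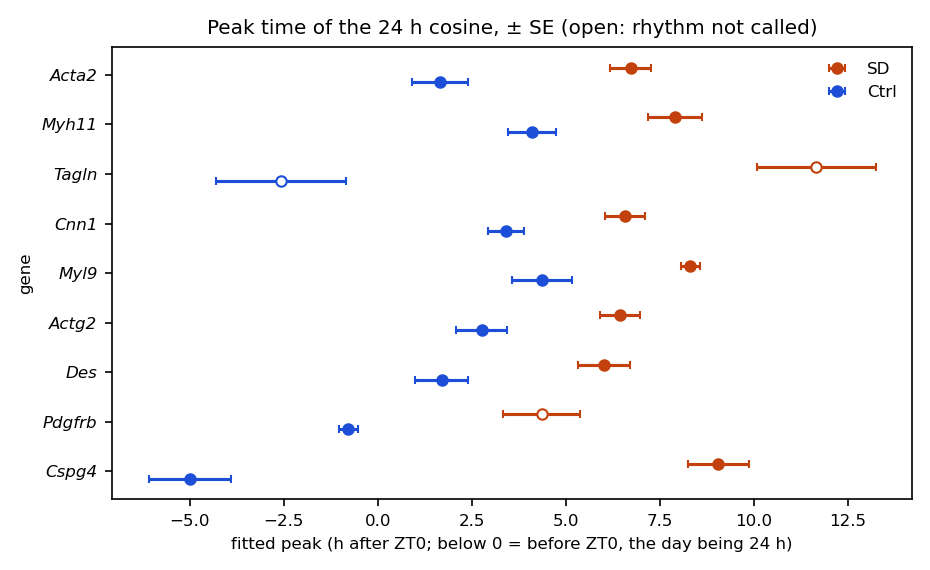
Peak time of the fitted 24 h cosine for each of the 9 genes in SD (orange) and Ctrl (blue) lungs, with standard errors. Values below 0 are h before ZT0, and open points mark rhythms that were not called. The 6 contractile genes other than Tagln peak between 6.00 and 8.30 h in SD and between 1.66 and 4.36 h in Ctrl lungs.

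ZT0 and ZT24 are the same clock hour 1 day apart. In SD lungs 7 of 9 genes differed at ZT24 from ZT0, 5 higher and 2 lower, with 38.5% of all genes called, 20.4% higher and 18.2% lower. In Ctrl lungs 8 did and all 8 were higher, with 6.94% of all genes called higher, 5.97% lower and 12.9% in all. Among them Acta2 was at 64.4 FPKM at ZT24 and 53.7 FPKM at ZT0 in SD lungs (log2 0.26), and at 87.2 FPKM at ZT24 and 67.9 FPKM at ZT0 in Ctrl lungs (log2 0.36). Pdgfrb fell in SD (29.1 FPKM at ZT24, 35.2 FPKM at ZT0, log2 -0.26) and rose in Ctrl (34.5 FPKM at ZT24, 31.6 FPKM at ZT0, log2 0.13). Myh11 likewise fell in SD (log2 -0.23) and rose in Ctrl (log2 0.31). In SD the calls of Cnn1 (log2 0.17) and Myl9 (log2 0.11) were lost without single SD libraries. For Cnn1 these were ZT0 replicates 1 and 3 and ZT24 replicates 1 and 2 (adjusted p = 0.0501 to 0.123), and the Cnn1 call was also lost scaled by total reads (adjusted p = 0.0534). For Myl9 they were ZT0 replicates 1 and 3 and ZT24 replicate 1 (adjusted p = 0.148 to 0.274), and the Myl9 call was also lost with voom (0.05003), without the filter (0.0713), rescaled by median of ratios (0.0719) and scaled by total reads (0.117). The Des call in Ctrl was lost without ZT24 replicate 2 (adjusted p = 0.0502).

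Acta2, Myh11, Cnn1, Actg2 and Des followed each other over the groups, and Myl9 and Tagln did so less. Pearson's r over the 14 group means of log2(FPKM + 1) was 0.94 for Acta2 with Actg2 and 0.94 for Cnn1 with Actg2. The lowest r among Acta2, Myh11, Cnn1, Actg2 and Des was 0.57, for Acta2 with Myh11. Myl9 had an r of 0.31 with Des and 0.36 with Myh11, and Tagln of 0.16 to 0.35 with the other contractile genes and Des. Over all 36 pairs of the 9 genes the median was 0.39. Pdgfrb was nearest to Des (0.74) and Cspg4 to Myl9 (0.69), while Pdgfrb and Cspg4 had an r of -0.14. These r values describe 14 points that share collection times, and no p is given.

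Ratios between members describe how their balance moved. Acta2 per Myh11, both in FPKM, ran from 3.32 to 6.52 in the SD groups and from 5.39 to 7.30 in the Ctrl groups. At each of the 7 times the mean ratio was lower in SD, and at 5 of 7 times every SD library was below every Ctrl library. At ZT20 the ratio was 3.32 ± 0.110 in SD and 6.83 ± 0.553 in Ctrl lungs. Cnn1 per Myh11 was lower in SD at 6 of 7 times, the exception being ZT16. Acta2 per Myl9, the light chain, ran from 0.737 to 1.22 in the SD groups and from 0.818 to 1.12 in the Ctrl groups. It was lower in SD at 3 of 7 times, and at 3 times every SD library was above every Ctrl library. No test was run on these ratios.

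By the rule of likeness, the 10 tested genes whose group means followed the mean standardised profile of the 9 genes most closely were Tpm2 (r = 0.85), Dnajc27 (0.80), Pdlim3 (0.80), Cald1 (0.79), 9530036O11Rik (0.77), Zkscan4 (0.75), Synpo2 (0.74), Ntf3 (0.74), Fam69b (0.73) and Thra (0.73), each over 14 groups. Tpm2, the beta tropomyosin that lies along the actin filament, was at 27.3 FPKM in SD and 17.6 FPKM in Ctrl lungs at ZT8 (log2 0.61) and lower in SD at ZT20 (log2 -0.55).

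Other smooth muscle contractile genes, 24 in number, split at most times. Averaged over the times 7 were higher and 12 lower in SD, with a median of log2 -0.06, beside 34.6% higher and 35.3% lower among all tested genes. At ZT8 11 were higher and 6 lower, beside 27.1% and 28.9% of all genes. At ZT16 15 were higher and 5 lower, beside 29.1% and 27.1%. At ZT20 3 were higher and 18 lower (median -0.45), beside 33% and 28.4%, and at ZT24 2 were higher and 16 lower (median -0.22), beside 24.4% and 22.3%. Their summed level ran from 721 to 854 FPKM over the SD groups and from 716 to 912 FPKM over the Ctrl groups. Pcp4l1 had a lower mean in SD at 7 of 7 times (average log2 -0.49), most at ZT8 (log2 -0.94), where most of the 9 genes were higher. Hhip, an inhibitor of hedgehog ligands, was lower on average by log2 -0.47, and Tpm1, an alpha tropomyosin, by log2 -0.22. Csrp1, a LIM protein with the highest level of the list (238 FPKM), averaged log2 -0.12, with -0.56 at ZT0, 0.41 at ZT16 and -0.40 at ZT24.

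Of 8 tested genes of serum response factor and its partners 2 rose and 5 fell on average, where 34.6% of all tested genes rose and 35.3% fell. Klf4, a factor known to repress contractile genes in cultured smooth muscle and also made by endothelium, rose by log2 0.56 ± 0.0180 SE. It read 169, 170 and 170 FPKM in SD and 56.6, 45.9 and 57.6 FPKM in Ctrl libraries at ZT20, the time at which 8 of the 9 genes were lower. At ZT8, when 6 of the 9 genes were higher, Klf4 was higher in SD too (92.2 ± 1.93 FPKM in SD and 42.6 ± 0.950 FPKM in Ctrl lungs). Srf itself averaged log2 -0.22, Mef2c -0.44 and Fhl2, a LIM co-factor also made by heart muscle, -0.84. Myocd was at 0.121 FPKM, too low to be tested.

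Other pericyte genes were higher in SD on average in 8 of 13 cases and lower in 5 (median log2 0.12), where 34.6% of all tested genes were higher and 35.3% lower, so the lower count is near the share of all genes. Lamc3, a laminin chain, rose on average by log2 1.29 ± 0.0219 SE and was called higher at each time but ZT24 (log2 0.04). At ZT20 it read 16.4, 16.3 and 16.8 FPKM in SD and 2.35, 2.60 and 2.32 FPKM in Ctrl libraries. The list as a whole went the other way at ZT20, with 2 called higher and 7 lower, beside 33% and 28.4% of all genes. At ZT24 2 were called higher and 5 lower, beside 24.4% and 22.3%. From ZT0 to ZT16 more were called higher than lower. Notch3, the Notch receptor of mural cells, rose on average by log2 0.35. Cox4i2, a respiratory subunit with the highest level of the list (90.7 FPKM), rose by log2 0.30. At ZT20 neither mean was higher in SD (Notch3 17.3 FPKM in SD and 17.7 FPKM in Ctrl lungs, Cox4i2 107 and 110 FPKM). Postn, periostin, was lower at 7 of 7 times (average log2 -0.37). Among the PDGF genes the endothelial ligand Pdgfb fell by log2 -0.44 on average and read 27.1, 27.6 and 29.3 FPKM in SD and 65.9, 72.6 and 67.4 FPKM in Ctrl libraries at ZT20. On average Pdgfa fell by log2 -0.34 and the fibroblast receptor Pdgfra rose by log2 0.38, with 1 of 4 tested PDGF genes higher and 3 lower (34.6% and 35.3% of all genes). At ZT16 3 were called higher and 1 lower, beside 29.1% and 27.1% of all genes. Pdgfb was then at 54.1 FPKM in SD and 47.3 FPKM in Ctrl lungs, and Pdgfa at 34.2 and 27.4 FPKM. Pdgfb also had a higher mean in SD at ZT12 (49.5 FPKM, against 42.3 FPKM in Ctrl).

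Of 17 tested genes that signal contraction and relaxation 9 rose and 4 fell on average, where 34.6% of all tested genes rose and 35.3% fell. At ZT8 12 were called higher and 3 lower, beside 27.1% and 28.9% of all genes. At ZT24 the list went the other way, with 3 called higher and 7 lower (median log2 -0.11), beside 24.4% and 22.3%. Agtr1a, the angiotensin II receptor, rose by log2 0.72, and Edn1, the constrictor endothelin 1, by log2 0.43, each at 7 of 7 times.

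Markers of other cells of a lung dissection moved as well. Of 11 tested cardiac muscle genes (12 listed) 1 was higher and 10 lower on average, where 34.6% of all tested genes were higher and 35.3% lower. Their summed level ran from 40.2 to 273 FPKM over the SD groups and from 77.2 to 318 FPKM over the Ctrl groups. At ZT8 the cardiac sum was 273 ± 7.09 FPKM in SD and 318 ± 3.84 FPKM in Ctrl lungs, and at ZT24 it was 44.8 ± 0.439 FPKM in SD and 233 ± 4.69 FPKM in Ctrl. At ZT0 the cardiac list went the other way, with 9 of 11 genes called higher and 0 lower (median log2 1.15). At that time 18% of all tested genes were called higher and 19.7% lower. The cardiac sum at ZT0 was 218 ± 14.0 FPKM in SD and 102 ± 3.40 FPKM in Ctrl lungs. The log2 difference of Des, which heart muscle also makes, was -0.01 at ZT0, 0.61 at ZT8 and -0.01 at ZT24. Skeletal muscle genes were near 0, with 5 of 11 under 0.1 FPKM, Myh4 at 0, and a sum of 4.31 to 12.3 FPKM in SD and 4.79 to 10.5 FPKM in Ctrl groups. Of 11 cartilage genes 6 were under 0.1 FPKM, among them Acan and Col2a1, with a sum of 36.3 to 81.5 FPKM in SD and 27.4 to 73.5 FPKM in Ctrl groups, most of it Chad and Cytl1.

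Of all tested genes 34.6% were higher and 35.3% lower on average, beside which the next counts stand. Fibroblast markers were higher in 4 and lower in 7 of 12 cases, the higher ones at about that share, with a sum of 1522 to 1768 FPKM in SD and 1301 to 1842 FPKM in Ctrl groups. Mesothelial markers were higher on average in 4 of 4 tested genes, with a sum of 40.2 to 169 FPKM in SD and 43.1 to 94.2 FPKM in Ctrl groups. At ZT4 they went the other way, with 1 called higher and 3 lower (median log2 -1.77), beside 19.2% and 20.1% of all genes. Their sum at ZT4 was 40.2 FPKM in SD and 82.8 FPKM in Ctrl lungs. At ZT0 2 were called higher and 2 lower, beside 18% and 19.7% of all genes. Endothelial markers were higher on average in 8 and lower in 2 of 10 cases (1328 to 1635 FPKM in SD, 998 to 1456 FPKM in Ctrl groups). Airway markers were higher on average in 2 and lower in 8 of 10. The airway sum went the other way and was higher in SD at 6 of 7 times, with 67562 FPKM in SD and 25943 FPKM in Ctrl lungs at ZT16 and 94062 FPKM in SD and 46319 FPKM in Ctrl lungs at ZT20. The sum of the 9 genes ran from 190 to 329 FPKM in SD and from 176 to 295 FPKM in Ctrl groups. Each list was also reduced to the mean of its tested genes after standardising each gene over the 14 group means. Between the profile of the 9 genes and that of another list, Pearson's r, given with no p, was 0.88 for the other contractile genes. It was 0.32 for the PDGF genes, 0.00061 for contraction and relaxation signalling and -0.44 for serum response factor and its partners. Among cell types it was 0.47 for the other pericyte, 0.36 for the airway, 0.34 for the cardiac and 0.27 for the fibroblast list. The cartilage list had 0.24, the skeletal muscle 0.23, the endothelial 0.21 and the mesothelial list 0.12. The part of these cell types in the values of the 9 genes was not tested.

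**Figure D4:**
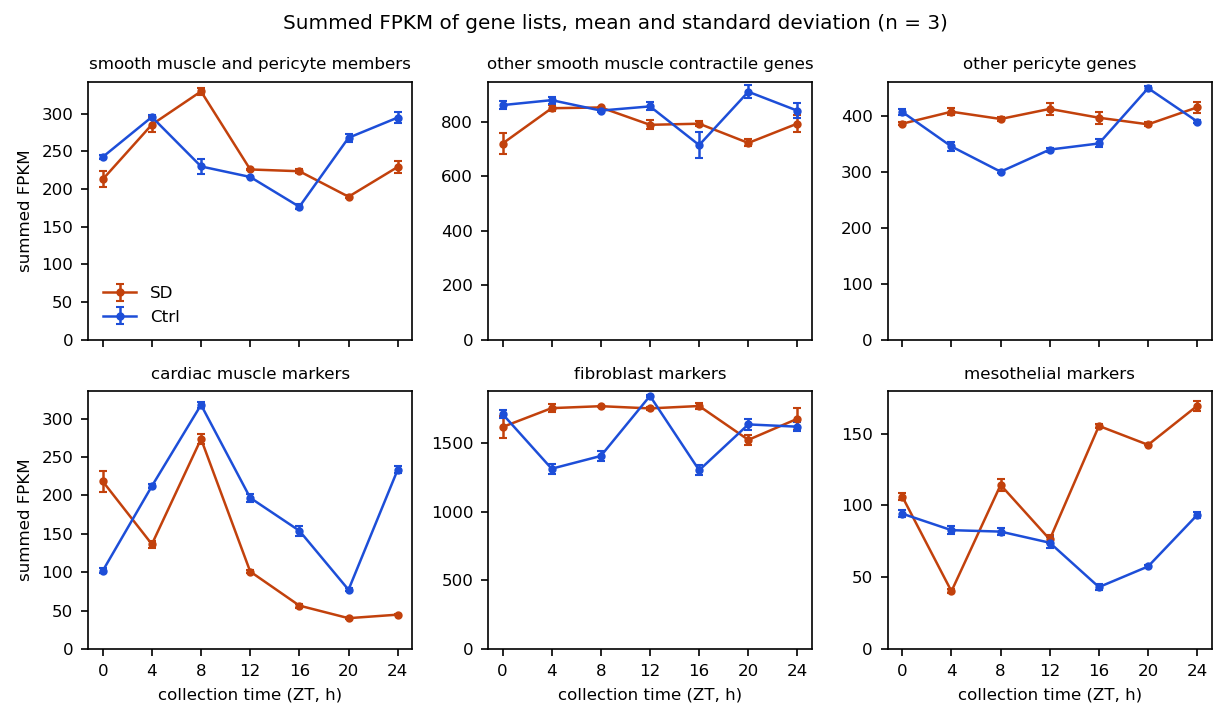
Summed FPKM of the 9 genes and of 5 other lists by collection time (h after lights on) in SD (orange) and Ctrl (blue) lungs, with means and standard deviations (n = 3). The 9 genes reach 329 FPKM in SD at ZT8, where the cardiac sum is 273 FPKM in SD and 318 FPKM in Ctrl lungs.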

How the data were processed

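Lung total RNA of 42 libraries was extracted with TRIzol and prepared with a NEBNext Ultra kit, per the labels' protocols. HISAT2 2.0.5, featureCounts 1.5.0-p3 and mm10 are named in the submitters' processing notes. For strand and shared reads the handling is not given in the sources used here. FPKM of 54532 genes were deposited by the authors, per the file headers, with gene lengths. In each library FPKM times length came in whole multiples of a single step (99.94% to 100% of values within 0.1 of a whole read), which gave 25285525 to 29790252 reads per library. These steps matched median-of-ratios size factors, so the deposited FPKM carry that scaling. Few reads limit Tagln, Actg2 and Cspg4 most.

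Groups were taken from the sample titles. limma 3.58.1 (R 4.3.3, lmFit and eBayes with trend) was fitted to log2(FPKM + 1) of 16962 genes (mean FPKM 0.5 or more), with 14 group means, and all p-values, two-sided, were adjusted by Benjamini-Hochberg over these genes. Fold changes on this scale understate those of low genes. Rhythms were cosines of 24 h within a condition (F test). The code was also run on simulated reads with known changes. These held no other variation between groups, so the run cannot give error rates for these data. The 9 genes, the other lists and the tests were chosen with earlier results of these data known. Named genes were the 9, the 3 with the smallest p for the average and the highest in level of each list, and the 10 most like the mean profile. 1 gene that this rule names is not reported here. Srf, Myocd, Acan, Col2a1 and Myh4 were added after values were seen. GENCODE M21 held 54409 of the IDs, 98.3% with the same start and end. Alternatives were a pseudocount of 0.1, no filter, other scalings, voom on recovered reads, a replicate block, group means as units, fewer times and leaving out each library.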

Additional observations from a re-analysis of the deposited data

Results flagged for a closer look

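For each of the 9 genes the SD effect differed between collection times, by limma's F test of the interaction over 16962 genes. The adjusted p was 1.06e-20 for Pdgfrb, 1.78e-17 for Cnn1, 9.23e-17 for Acta2, 1.99e-15 for Actg2, 5.93e-14 for Des, 3.09e-13 for Myh11, 4.94e-12 for Myl9, 2.03e-09 for Cspg4 and 0.000156 for Tagln. Such a difference was called for 81.7% of all tested genes. The widest span was that of Cnn1, with log2 1.04 at ZT16 and -0.50 at ZT20, and the narrowest that of Cspg4, with 0.05 at ZT12 and -0.56 at ZT20.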

How the results depend on the processing

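With group means as units, the members called by limma came to 0 for the average (7 with libraries as units), 0 for the SD rhythm (7), 1 for the Ctrl rhythm (8) and 0 for the difference in rhythm (9). No such fit exists for single times. Leaving out 1 library at a time gave 7 to 8 members for the average, 9 to 9 for the interaction, 5 to 7 for ZT24 against ZT0 in SD and 7 to 8 in Ctrl. For the rhythms it gave 7 to 8 in SD, 7 to 8 in Ctrl and 8 to 9 for their difference. By time it gave 6 to 6 at ZT0, 5 to 5 at ZT4, 6 to 6 at ZT8, 4 to 5 at ZT12, 7 to 8 at ZT16, 9 to 9 at ZT20 and 7 to 8 at ZT24. Signs turned as follows, in log2. Scaled by total reads, Cnn1 averaged -0.030 (0.04 as deposited), and at ZT8 Tagln was -0.019 and Myl9 -0.029. Without ZT8, ZT12, ZT16 and ZT24, Cnn1 averaged -0.35 and Des -0.039. Leaving out single libraries turned some uncalled values near 0, over these ranges. Des ran from -0.060 to 0.021 at ZT0 and -0.058 to 0.021 at ZT24, Tagln from -0.058 to 0.14 at ZT4 and -0.013 to 0.066 at ZT8, Cspg4 from -0.014 to 0.034 at ZT4 and -0.080 to 0.015 at ZT8, and Cnn1 from -0.097 to 0.023 at ZT12. The cause was not tested. The replicate block changed no call: 7 members stayed called for the average and 9 for the interaction. The numbers did not pair the libraries (mean correlation of same-numbered deviations 0.00176, 3 of 273 pairs over 0.1). Of the libraries, 17 of 42 were closest to their own number. Depth limits Tagln, with 42 to 137 reads, most.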
